A study of Mus musculus with 12 samples.

Results

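A set of 10 genes that mark the macrophages of mouse liver were read on 12 whole-liver arrays. They fall into 4 markers of resident Kupffer cells (Clec4f, Cd5l, Vsig4 and Marco) and 6 markers of macrophages in general (Adgre1, C1qa, C1qb, C1qc, Csf1r and Cd68). The members were the transcript clusters whose gene symbol in the platform annotation equals a listed gene, with the cluster of the highest mean over the 12 arrays standing for the gene. All 10 genes were found, each with 1 cluster, among 19938 genes and 21789 clusters that carry exactly 1 symbol. The series crossed genotype with thyroid state, with 3 mice and 3 arrays in each of 4 groups: hypothyroid mutants (mice 5, 6 and 7), euthyroid mutants (mice 2, 3 and 4), hypothyroid controls (mice 17, 18 and 20) and euthyroid controls (mice 13, 14 and 15). The numbers are those of the sample titles. Total liver RNA was hybridised to Affymetrix mouse Gene Level 1.0 ST arrays, and the values are log2 signals after RMA (robust multi-array averaging). Mutant livers came from mice that the design text calls L-NCoR∆ID, and the controls carry no allele that the labels name. As background, this line is known as one in which the liver makes a shortened NCoR, a nuclear receptor corepressor, after Cre driven by the albumin promoter acts in hepatocytes. The labels state neither that driver nor the sex, age or strain of the mice or how they were made hypothyroid. No cluster with 1 symbol was annotated as Ncor1, so the altered gene was not analysed here. The labels do not say that the mice of a group came from separate litters or days, so a p-value measures the spread between these animals alone.

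Kupffer cells are the resident macrophages of the liver. They sit inside the sinusoids, the capillaries between plates of hepatocytes, where they take up bacteria, old red cells and opsonised particles from portal blood. They arise from embryonic precursors, depend on signals through the receptor Csf1r, and keep an identity set by transcription factors such as PU.1 and the liver X receptor. Clec4f, a C-type lectin, is in mice nearly restricted to them, whereas Adgre1, Csf1r, Cd68 and the complement C1q chains are shared by macrophages of many tissues. In whole-liver RNA, fewer macrophages and less of these transcripts per macrophage cannot be told apart.

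Promoter sequence was read for 7 of the 10 members (Clec4f, Cd5l, Vsig4, Marco, C1qb, C1qc and Cd68). The promoters of C1qa, Adgre1 and Csf1r were not read, so the motif counts below do not cover them. Shown are the 250 bases before the start site of the 3 genes that passed the test for thyroid state (Clec4f, Cd5l and C1qc) and of C1qb, the neighbour of C1qc, written 5′ to 3′ on the gene's strand (RefSeq, GRCm38.p6). Capitals mark the letters GAGGAA, a core recognised by PU.1, the factor that specifies macrophages, and GGAAGT, a core of the wider ETS family to which PU.1 belongs, on either strand (TTCCTC and ACTTCC on the other).
Clec4f (chr6:83656117-83656366, minus strand): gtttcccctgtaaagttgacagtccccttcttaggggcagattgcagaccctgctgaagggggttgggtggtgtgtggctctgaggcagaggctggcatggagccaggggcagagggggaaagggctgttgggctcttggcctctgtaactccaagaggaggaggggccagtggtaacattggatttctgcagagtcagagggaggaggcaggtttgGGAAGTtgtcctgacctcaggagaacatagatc
Cd5l (chr3:87357631-87357880, plus strand): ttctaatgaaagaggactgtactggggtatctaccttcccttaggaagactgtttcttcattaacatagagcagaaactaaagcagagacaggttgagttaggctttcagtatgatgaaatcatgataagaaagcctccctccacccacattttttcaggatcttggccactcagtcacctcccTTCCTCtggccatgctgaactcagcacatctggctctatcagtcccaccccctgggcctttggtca
C1qc (chr4:136892915-136893164, minus strand): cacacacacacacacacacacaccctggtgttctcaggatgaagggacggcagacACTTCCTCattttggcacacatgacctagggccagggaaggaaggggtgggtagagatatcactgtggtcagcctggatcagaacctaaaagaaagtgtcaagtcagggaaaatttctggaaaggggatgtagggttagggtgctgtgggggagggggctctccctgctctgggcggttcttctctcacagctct
C1qb (chr4:136886201-136886450, minus strand): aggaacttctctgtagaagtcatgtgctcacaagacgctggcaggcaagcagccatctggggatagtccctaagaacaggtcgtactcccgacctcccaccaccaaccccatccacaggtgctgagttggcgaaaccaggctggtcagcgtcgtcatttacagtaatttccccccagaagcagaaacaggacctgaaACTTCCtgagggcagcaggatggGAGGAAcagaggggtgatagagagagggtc
GAGGAA stood in 6 of the 7 member promoters and in 23.3% of 32851 mouse promoters of the same length. GGAAGT stood in 4 of 7 and in 19.7% of all. The 2 cores share letters and can overlap, as they do in the C1qc promoter, where ACTTCCTC holds both. Clec4f held GGAAGT and no GAGGAA in this window. The AP-1 letters TGANTCA stood in 1 of 7 member promoters (Cd68) and in 6.75% of all, and the direct repeat that the liver X receptor binds in 0 of 7 and in 0.0152% of all. These matches describe letters in a window, not binding. The liver X receptor repeat was searched as 1 fixed pattern, which stood in only 5 of the 32851 promoters. At that rarity, 0 of 7 cannot show whether Cd5l or any other member lacks a site for this receptor. C1qb, C1qc and C1qa, the chains of 1 protein, are consecutive protein-coding genes on chromosome 4. Csf1r, Adgre1, Vsig4 and Cd5l lie on other chromosomes.

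Mean signal took the same order in most members. Euthyroid mutants had the highest group mean for 10 of 10 genes and hypothyroid controls the lowest for 9 of 10. The exception was Marco, whose lowest mean was that of hypothyroid mutants (4.29 ± 0.0755, against 4.30 ± 0.115 in hypothyroid controls; SD, n = 3 each), a gap smaller than the spread. Between hypothyroid mutants and euthyroid controls, the mean was higher in hypothyroid mutants for 3 genes (Cd5l, Vsig4 and Adgre1) and in euthyroid controls for 7, Marco among them. Their values overlapped for 10 of 10 genes, while 28.6% of all clusters separated these groups without overlap.

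**Figure D1:**
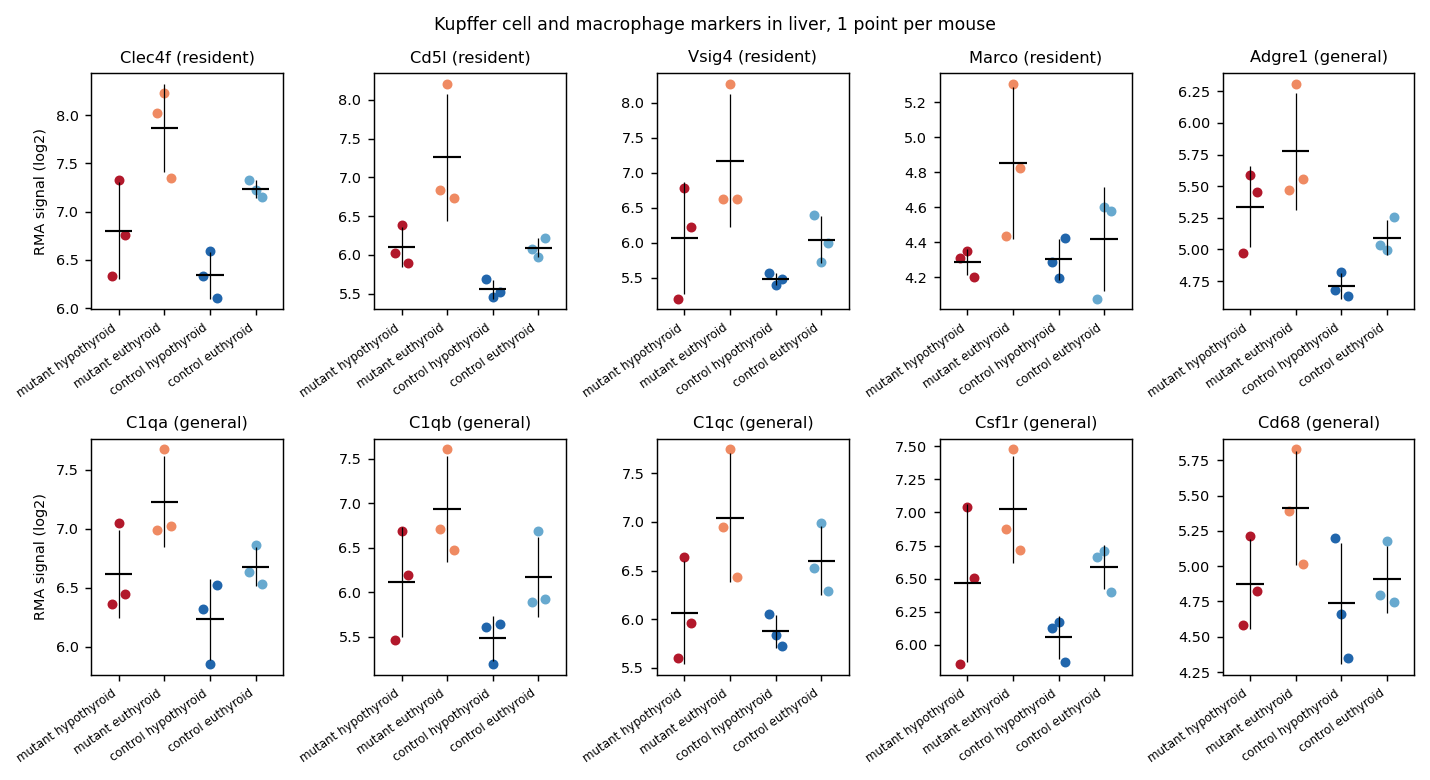
RMA signal (log2, vertical axis) of each of the 10 genes in hypothyroid mutants, euthyroid mutants, hypothyroid controls and euthyroid controls, 1 point per mouse, with the group mean (horizontal bar) and SD (vertical line). Euthyroid mutants have the highest mean in 10 of 10 panels, and 1 of their mice, mouse 3, is the highest point of each panel.

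Hypothyroid livers held less of some macrophage transcripts. Averaged over genotypes, 3 of the 10 genes were lower in hypothyroid than in euthyroid liver by the limma test (adjusted p under 0.05): Clec4f, Cd5l and C1qc. Among all clusters 1.87% were called lower and 4.18% higher in that comparison, 407 and 910 clusters (484 and 548 after quantile normalization). None of the 10 was higher. All 10 differences were below 0, where 46.1% of those of all clusters were above it. Of the members 9 had an unadjusted p under 0.05 where 10.6% of all clusters were lower at that level, and their median difference was -0.65 on the log2 scale against -0.02 over all clusters.

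Clec4f, which binds glycolipids and is the most Kupffer cell-restricted of the members, read 6.33, 7.32 and 6.76 in hypothyroid mutants and 8.02, 8.22 and 7.35 in euthyroid mutants. The same gene read 6.33, 6.59 and 6.10 in hypothyroid controls and 7.33, 7.23 and 7.15 in euthyroid controls. Within each genotype every hypothyroid mouse lay below every euthyroid mouse; hypothyroid mutant mouse 6 lay just under euthyroid mutant mouse 4. Clec4f was 1.97-fold lower in hypothyroid liver (log2 difference -0.98 ± 0.171 SE, limma adjusted p = 0.00359). It passed the test under all 20 alternative settings, with adjusted p between 0.00095 and 0.0217. In mutants alone it differed by -1.06 ± 0.242 (adjusted p = 0.0489), a call that, with 1 array left out, was kept only without control euthyroid mouse 13 or 14, mutant euthyroid mouse 4 or mutant hypothyroid mouse 6 (adjusted p up to 0.187 without mutant euthyroid mouse 2), and in controls alone by -0.90 ± 0.242 (adjusted p = 0.0972).

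Cd5l, also called AIM, is a secreted scavenger-receptor-like protein that supports macrophage survival and is a target of the liver X receptor. It read 6.02, 6.39 and 5.89 in hypothyroid mutants against 6.84, 8.20 and 6.73 in euthyroid mutants, and 5.70, 5.46 and 5.52 in hypothyroid controls against 6.07, 5.98 and 6.22 in euthyroid controls. The groups did not overlap in either genotype. Cd5l was 1.80-fold lower in hypothyroid liver (-0.85 ± 0.2 SE, adjusted p = 0.0237). Without 1 of 4 arrays it was no longer called: control euthyroid mouse 15 (adjusted p = 0.0523), control hypothyroid mice 18 (0.0575) and 20 (0.0546), and mutant hypothyroid mouse 7 (0.0669).

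Vsig4 and Marco complete the resident set. Vsig4, the complement receptor CRIg that lets Kupffer cells catch particles coated with C3 fragments, read 5.20, 6.78 and 6.22 in hypothyroid mutants against 6.62, 8.27 and 6.63 in euthyroid mutants. In controls it read 5.57, 5.40 and 5.48 in the hypothyroid mice against 6.39, 5.72 and 6.003 in the euthyroid mice. Control groups were separate and mutant groups overlapped, and the averaged difference of -0.83 ± 0.283 was not called (adjusted p = 0.0916). Marco, a class A scavenger receptor for bacteria, read 4.31, 4.35 and 4.21 in hypothyroid mutants against 4.44, 5.30 and 4.82 in euthyroid mutants. In controls Marco spanned 4.197 to 4.43 in the hypothyroid mice and 4.08 to 4.60 in the euthyroid mice, so that these groups overlapped, and its averaged difference was -0.34 ± 0.137 (adjusted p = 0.142). Group means of Marco ran from 4.29 to 4.85, where the array medians ran from 4.16 to 4.32.

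Among the general markers, C1qc was the gene called. The C1q chains form the recognition part of complement component C1, and macrophages are a main source of them. C1qc read 5.60, 6.64 and 5.97 in hypothyroid mutants against 6.95, 7.75 and 6.43 in euthyroid mutants, and 6.06, 5.84 and 5.73 in hypothyroid controls against 6.53, 6.99 and 6.29 in euthyroid controls. Controls did not overlap and mutants did. The difference was -0.85 ± 0.211, or 1.80-fold lower (adjusted p = 0.0296). The call ended without any 1 of 7 arrays, with adjusted p of 0.0634 without control euthyroid mouse 14, 0.0512, 0.0639 and 0.0728 without control hypothyroid mice 17, 18 and 20, 0.0579 without mutant euthyroid mouse 2, and 0.0631 and 0.0747 without mutant hypothyroid mice 5 and 7. It also ended with the SD of each array as a covariate (adjusted p = 0.181).

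The other C1q chains had differences of like size that missed the threshold. C1qb read 5.47, 6.69 and 6.19 in hypothyroid mutants against 6.71, 7.60 and 6.48 in euthyroid mutants, and 5.61, 5.20 and 5.65 in hypothyroid controls against 5.89, 6.68 and 5.93 in euthyroid controls (averaged difference -0.75 ± 0.224, adjusted p = 0.0603). C1qa differed by -0.53 ± 0.158 (adjusted p = 0.0606), with 6.36 to 7.04 in hypothyroid mutants, 6.99 to 7.67 in euthyroid mutants, 5.85 to 6.53 in hypothyroid controls and 6.53 to 6.86 in euthyroid controls. Both genes separated the control groups, and both overlapped between the mutant groups. For C1qa the control groups were narrowly apart (highest hypothyroid 6.526, lowest euthyroid 6.534). Csf1r, the receptor for the growth factors Csf1 and Il34, differed by -0.54 ± 0.176 (adjusted p = 0.0785). It spanned 5.85 to 7.04 in hypothyroid mutants, 6.72 to 7.48 in euthyroid mutants, 5.87 to 6.17 in hypothyroid controls and 6.40 to 6.71 in euthyroid controls, so that the control groups were separate and the mutant groups overlapped. Adgre1, which encodes the F4/80 antigen, differed by -0.41 ± 0.145 (0.102), and Cd68, a lysosomal glycoprotein of phagocytes, by -0.35 ± 0.168 (0.207). Cd68 spanned 4.58 to 5.21 in hypothyroid mutants, 5.02 to 5.83 in euthyroid mutants, 4.35 to 5.20 in hypothyroid controls and 4.75 to 5.18 in euthyroid controls, and it overlapped within both genotypes.

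Within a single genotype fewer members were called. In hypothyroid against euthyroid controls, limma called 0 of 10 members (0.473% of all clusters were called lower), and 4 had an unadjusted p under 0.05, as did 5.02% of all clusters in the lower direction. Hypothyroid controls nevertheless lay wholly below euthyroid controls for 8 of 10 genes, all but Marco and Cd68, against 7.88% of all clusters. The fit used 1 shared spread for the 4 groups, so the spread of mutants also entered the p-values in controls. Fitted on their own, the control groups gave 1 called member of 10. The median SD of the members was 0.46 in euthyroid and 0.44 in hypothyroid mutants, and 0.2 and 0.17 in the matching controls. In mutants, Clec4f was the 1 gene called (0.454% of all clusters were called lower, 99 clusters against 142 higher, and 121 against 111 after quantile normalization), 9 of 10 had an unadjusted p under 0.05 (7.45% of all clusters, in the lower direction), and 3 genes did not overlap (Clec4f, Cd5l and Marco, against 11.1% of all clusters). The median difference was -0.71 in mutants and -0.53 in controls. The mutant median was -0.43 without euthyroid mutant mouse 3, and the control median -0.83 with the array SD as a covariate.

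**Figure D2:**
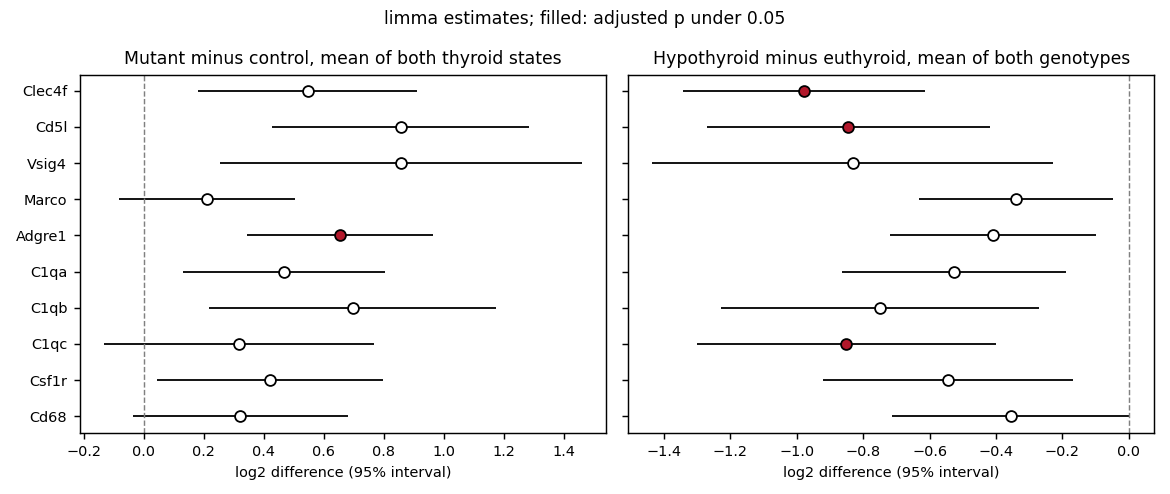
Log2 differences (horizontal axis) of the 10 genes with 95% intervals from limma, for mutant minus control averaged over thyroid states (left) and hypothyroid minus euthyroid averaged over genotypes (right). Filled points passed the test: Adgre1 on the left, and Clec4f, Cd5l and C1qc on the right. All points lie above 0 on the left and below 0 on the right.

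Between genotypes the differences had the opposite sign. Averaged over thyroid states, Adgre1 was higher in mutants than in controls and was the 1 member of 10 called, where 0.904% of all clusters were called higher and 0.234% lower (197 and 51 clusters, 178 and 81 after quantile normalization, 222 and 27 after median centring). All 10 differences were above 0, as were 46.4% of those of all clusters, 7 had an unadjusted p under 0.05 (9.8% of all clusters, in the higher direction), and their median was 0.51 against -0.01 over all clusters (0.25 with the array SD as a covariate). This average and that over genotypes use the same 12 arrays.

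Adgre1 read 4.98, 5.59 and 5.45 in hypothyroid mutants against 4.68, 4.82 and 4.63 in hypothyroid controls. In euthyroid mice it read 5.47, 6.31 and 5.55 in mutants against 5.03, 4.99 and 5.26 in controls. Every mutant lay above every control of its thyroid state. The difference was 0.66 ± 0.145 (1.57-fold, limma adjusted p = 0.0427), 0.68 ± 0.206 in euthyroid and 0.63 ± 0.206 in hypothyroid mice. The call ended with any of 9 arrays left out. Adjusted p was 0.0856 and 0.0665 without control euthyroid mice 14 and 15, and 0.12, 0.0825 and 0.0902 without control hypothyroid mice 17, 18 and 20. It was 0.0644 and 0.057 without mutant euthyroid mice 3 and 4, and 0.117 and 0.105 without mutant hypothyroid mice 6 and 7. With the array SD as a covariate the difference was 0.38 and the adjusted p 0.578. The mean array SD was 2.34 in hypothyroid mutants, 2.28 in euthyroid mutants, 2.29 in hypothyroid controls and 2.26 in euthyroid controls, and it thus moved with both genotype and thyroid state.

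No resident marker passed this test. Cd5l came nearest (0.86 ± 0.2, adjusted p = 0.0563), with all 3 mutants above all 3 controls in each thyroid state. Vsig4 had as large a difference with a wider spread (0.86 ± 0.283, adjusted p = 0.158), Clec4f differed by 0.55 ± 0.171 (0.14) and Marco by 0.21 ± 0.137 (0.457). Of the general markers, C1qb differed by 0.70 ± 0.224 (0.149), C1qa by 0.47 ± 0.158 (0.166), Csf1r by 0.42 ± 0.176 (0.25), Cd68 by 0.32 ± 0.168 (0.352) and C1qc by 0.32 ± 0.211 (0.467). Thus C1qc, called for thyroid state, was among the least different between genotypes, and Adgre1, called for genotype, was among the least different between thyroid states. Whether these genes differ from each other was not tested.

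In euthyroid mice alone limma called 0 of 10 members (0.124% of all clusters were called higher), and 7 had an unadjusted p under 0.05 (4.85% of all clusters, in the higher direction). Mutants lay wholly above controls for 6 genes (Clec4f, Cd5l, Vsig4, Adgre1, C1qa and Csf1r), against 5.05% of all clusters. The gap was narrow for Csf1r (lowest mutant 6.717, highest control 6.708) and Clec4f (7.349 and 7.331). The median difference of 0.59 was 0.37 without mutant mouse 3. In hypothyroid mice limma again called 0 of 10 (0.216% of all clusters were called higher), 1 had an unadjusted p under 0.05 (Adgre1, where 6.01% of all clusters were higher at that level), and 2 genes, Cd5l and Adgre1, did not overlap, against 12.4% of all clusters. The median there was 0.44, 0.19 without mutant mouse 6 and 0.08 with the array SD as a covariate, under which Vsig4 (-0.36), C1qc (-0.0755) and Cd68 (-0.00827) were below 0. Marco differed by -0.01 ± 0.194 in hypothyroid mice, with a 95% interval from -0.43 to 0.40.

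Whether the genotype difference depended on thyroid state was tested as an interaction, and limma called 0 of 10 members and 0 of all clusters (0%). None of the 10 had an unadjusted p under 0.05, against 600 clusters (2.75%). All 10 estimates were below 0, where 47.5% of those of all clusters were above it, meaning a smaller mutant excess in hypothyroid mice, and their median was -0.21. That median was 0.04 without mutant euthyroid mouse 3, -0.03 without mutant hypothyroid mouse 5, -0.13 without control euthyroid mouse 15, -0.39 without control euthyroid mouse 14, -0.44 without mutant euthyroid mouse 4 and -0.45 without mutant hypothyroid mouse 6, and it was -0.34 with the array SD as a covariate. The intervals were wide, from -1.48 to 0.23 for Cd5l, whose estimate of -0.62 was the lowest, and from -0.77 to 0.73 for Csf1r, whose estimate of -0.02 was nearest to 0.

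Much of the variation lay between mice of the mutant groups. Euthyroid mutant mouse 3 was the highest of the 12 mice for 10 of 10 genes, by 0.88 to 2.23 above the mean of euthyroid controls (median 1.07). The other mice of that group, 2 and 4, had medians of 0.43 and 0.33. Hypothyroid mutant mouse 6 was the highest of its group for 10 of 10 genes and mouse 5 the lowest for 8. Relative to euthyroid controls, mouse 5 was lower for 10 of 10 genes (median -0.51), mouse 6 higher for 9 (median 0.34) and mouse 7 higher for 3 (median -0.14).

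In controls the mice of a group differed less. The SD of a gene over 3 mice was larger in euthyroid mutants than in euthyroid controls for 10 of 10 members, as it was for 37.6% of all clusters, with a median SD of 0.46 against 0.2. In hypothyroid mice it was larger in mutants for 8 of 10 members and 54.5% of all clusters, with a median SD of 0.44 against 0.17. Over all clusters the median SD was 0.154 in euthyroid mutants and 0.205 in euthyroid controls.

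**Figure D3:**
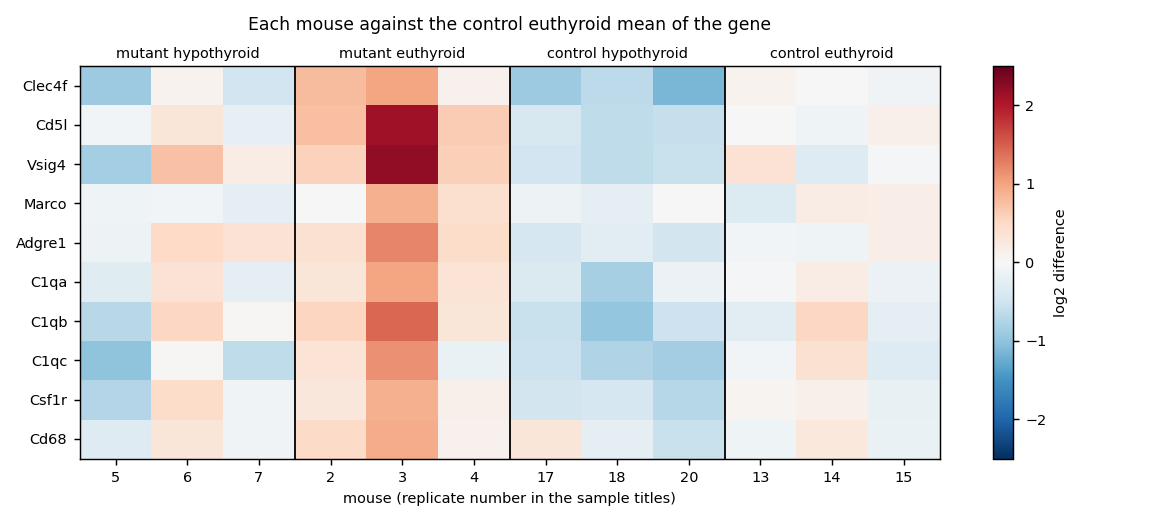
Log2 difference of each mouse from the mean of euthyroid controls, for the 10 genes (rows) and 12 mice (columns, grouped as hypothyroid mutants, euthyroid mutants, hypothyroid controls and euthyroid controls). Red is higher and blue lower. Mouse 3 is red in 10 of 10 rows, with Vsig4 and Cd5l strongest, and mouse 5 is blue in 10 of 10.

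Resident and general markers followed the same mice. Relative to euthyroid controls, the mean of the 4 resident markers was -0.48, 0.26 and -0.18 in hypothyroid mutant mice 5, 6 and 7, and that of the 6 general markers -0.53, 0.36 and -0.11. In euthyroid mutant mice 2, 3 and 4 the resident mean was 0.53, 1.55 and 0.44 and the general mean 0.39, 1.10 and 0.20. In hypothyroid control mice 17, 18 and 20 the resident mean was -0.48, -0.54 and -0.57 and the general mean -0.34, -0.58 and -0.55. In euthyroid control mice 13, 14 and 15 the resident mean was 0.02, -0.06 and 0.04 and the general mean -0.08, 0.23 and -0.15. The resident mean lay above the general mean in all 3 euthyroid mutants, by most in mouse 3, but in only 1 of 3 hypothyroid mutants, 1 of 3 hypothyroid controls and 2 of 3 euthyroid controls. That difference between the sets was not tested. For thyroid state the median difference was -0.84 over the resident and -0.54 over the general markers, and for genotype 0.70 and 0.44, with 2 of 4 resident and 1 of 6 general markers called lower for thyroid state (1.87% of all clusters), and 0 of 4 and 1 of 6 called higher for genotype (0.904% of all clusters).

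Across the 12 arrays the members varied together, given as a description since mice share groups. The median Pearson correlation over 45 pairs was 0.85, from 0.59 for Clec4f with Marco to 0.95 for C1qa with C1qb. After group means were subtracted the median was 0.69, from 0.05 (Clec4f with Marco) to 0.91 (C1qb with C1qc). Marco was the least alike of the set, with a median of 0.70 to the other 9 genes and 0.43 after group means were subtracted. Its signal was also low, near the array medians in most mice. The part of this low level in its correlations was not tested.

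Genes outside the set were ranked by their correlation with the members' mean pattern over the 12 arrays, among 10885 clusters above the median level. The first 10 were Laptm5 (0.98), Lyz2 (0.97), Adgre5 (0.97), Themis2 (0.96), Folr2 (0.94), Rnf213 (0.94), Nckap1l (0.92), Tmsb4x (0.92), Bak1 (0.91) and Ccl6 (0.91), where the 99th percentile of the candidates was 0.76. After group means were subtracted, the first 10 were Laptm5 (0.99), Tbc1d1 (0.97), Rasgrp2 (0.97), Sirpa (0.96), Adgre5 (0.95), Cd74 (0.94), Themis2 (0.94), Lyz2 (0.93), Tmsb4x (0.93) and Rusf1 (0.93), with a 99th percentile of 0.78. Laptm5, Lyz2, Adgre5, Themis2 and Tmsb4x stood in both rankings. The first 10 of so many candidates lie above the 99th percentile by construction. In the members' mean pattern, in SD units, mouse 3 stood at 2.20 and the next highest, mouse 2, at 0.72. After group means were subtracted, mouse 3 stood at 1.75 and mouse 6 at 1.22. The part of these mice in the correlations was not tested.

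Other macrophage genes followed in part. Of 37 measured genes of the macrophage lineage, 5 were lower in hypothyroid liver averaged over genotypes and 0 were higher. Over all clusters 1.87% were called lower and 4.18% higher. The median difference of the 37 genes was -0.24. Those called were Lyz2, the lysozyme of myeloid cells (-1.02 ± 0.274, limma adjusted p = 0.0402), the Fc receptor gene Fcgr1 (-0.59 ± 0.128, 0.0146), Aif1, which encodes the macrophage protein Iba1 (-0.48 ± 0.129, 0.0387), the lysosomal protease Lgmn (-0.44 ± 0.0937, 0.0132) and the transcription factor Irf8 (-0.42 ± 0.108, 0.0317). Fcgr1 and Lgmn were called whichever array was left out. Group means ran from 3.54 to 4.24 for Fcgr1 and from 2.92 to 3.82 for Aif1. These levels were near or below the array medians of 4.16 to 4.32. Lyz2 was lost without each of 7 arrays (control euthyroid mice 14 and 15, control hypothyroid mice 17, 18 and 20, mutant hypothyroid mice 5 and 7), with adjusted p from 0.0671 to 0.0928. With the SD of each array as a covariate, Lyz2 and Lgmn passed and Fcgr1 (adjusted p = 0.198), Aif1 (0.124) and Irf8 (0.694) did not. With 1 array left out, Irf8 was kept only without control euthyroid mouse 13, control hypothyroid mouse 20 or mutant hypothyroid mouse 5, and Aif1 only without control euthyroid mouse 13, mutant euthyroid mouse 4 or mutant hypothyroid mouse 6.

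For genotype, 2 of the 37 lineage genes were higher in mutants and 0 lower, with a median difference of 0.26. Over all clusters 0.904% were called higher and 0.234% lower. Cathepsin S, Ctss, a protease of antigen presentation, averaged 6.90 ± 0.505 in hypothyroid mutants and 7.21 ± 0.499 in euthyroid mutants, against 6.04 ± 0.133 in hypothyroid controls and 6.24 ± 0.181 in euthyroid controls (SD, n = 3 each; difference 0.92 ± 0.174 SE, adjusted p = 0.0192). Mpeg1, a pore-forming protein of phagocytes, differed by 0.84 ± 0.182 (adjusted p = 0.039). With the array SD as a covariate neither passed (adjusted p = 0.428 for Ctss and 0.436 for Mpeg1). Ctss was lost without control hypothyroid mouse 17 (0.0667) or 18 (0.0517). Mpeg1 was kept only without control euthyroid mouse 13 or 1 of the mutant euthyroid mice 2, 3 and 4. Neither gene was called for thyroid state (Ctss -0.25 ± 0.174, adjusted p = 0.38, and Mpeg1 0.14 ± 0.182, adjusted p = 0.651).

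Of 11 further Kupffer cell genes measured, Folr2, a folate receptor of resident macrophages, was lower in hypothyroid liver (-0.60 ± 0.148, adjusted p = 0.0296), and 0 were called for genotype. Over all clusters 1.87% were called lower for thyroid state, and 0.904% were called higher for genotype. Folr2 averaged 4.86 ± 0.11 in hypothyroid mutants against 5.50 ± 0.577 in euthyroid mutants, and 4.42 ± 0.112 in hypothyroid controls against 4.97 ± 0.0697 in euthyroid controls (SD, n = 3 each). Its call was lost without each of 6 arrays (control euthyroid mice 14 and 15, control hypothyroid mice 17 and 20, mutant hypothyroid mice 5 and 7; adjusted p from 0.0527 to 0.0724), after median centring (0.0505) and with the array SD as a covariate (0.104). Timd4, a phosphatidylserine receptor of embryonically derived Kupffer cells, differed by -0.41 ± 0.166 for thyroid state (adjusted p = 0.144) and 0.34 ± 0.166 for genotype (0.32). Cd163, the haemoglobin scavenger receptor, differed by -0.33 ± 0.181 (0.267) and 0.30 ± 0.181 (0.411). The mean signal of all 11 genes was 6.08 in hypothyroid and 6.29 in euthyroid mutants. It was 5.96 in hypothyroid and 6.07 in euthyroid controls. Those gaps were smaller than the gaps of the members, whose mean was 5.87 and 6.66 in mutants and 5.48 and 5.98 in controls.

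The growth factor and complement partners of the members gave few calls. Over all clusters 1.87% were called lower in hypothyroid liver and 0.904% higher in mutants. Of the 5 genes Csf1r, Csf1, Il34, Csf2ra and Csf2rb, 0 were called for either averaged effect by limma, with Csf1 at -0.39 ± 0.131 for thyroid state (adjusted p = 0.0882) and 0.11 ± 0.131 for genotype (0.706). Of 10 other complement genes, C2 was higher in mutants (0.49 ± 0.0958, adjusted p = 0.0215) and C4b lower in hypothyroid liver (-0.51 ± 0.104, adjusted p = 0.00957). Both products act directly after C1 in the classical pathway, and hepatocytes make them too. C4b has a near-identical copy, so its probes may read both. C2 was lost without control hypothyroid mice 17 or 20, mutant euthyroid mice 2 or 3, or mutant hypothyroid mouse 5 (adjusted p from 0.0526 to 0.0648), whereas C4b was kept with any 1 array left out. With the array SD as a covariate neither passed (adjusted p = 0.282 for C2 and 0.266 for C4b).

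Genes of lipid handling in macrophages, most of which hepatocytes also express, had 4 of 13 higher in mutants (0.904% of all clusters) and 3 higher in hypothyroid liver (4.18% of all clusters). Fabp5 (1.98 ± 0.339, adjusted p = 0.00969), Pltp (1.53 ± 0.277, 0.014), Lpl (1.35 ± 0.276, 0.0282) and Cd36 (0.88 ± 0.19, 0.0381) were higher in mutants. With 1 array left out, Fabp5 and Pltp were called throughout, Lpl was kept only without control euthyroid mouse 13, control hypothyroid mouse 20, mutant euthyroid mouse 4 or mutant hypothyroid mouse 5, and Cd36 only without 1 of the control euthyroid mice, control hypothyroid mouse 20 or mutant euthyroid mouse 3. Lpl (2.59 ± 0.276), Cd36 (1.27 ± 0.19) and Pparg (1.18 ± 0.139) were higher in hypothyroid liver, the direction opposite to that of the members. With the array SD as a covariate none of the genotype calls held (adjusted p = 0.169 for Fabp5, 0.317 for Pltp, 0.53 for Lpl, whose difference was then 0.70, and 0.505 for Cd36), and of the thyroid calls Lpl held while Cd36 (0.223) and Pparg (0.0552) did not. Trend and robust eBayes also ended the genotype calls of Fabp5 (0.07), Pltp (0.0642) and Lpl (0.0833), and a fit over every cluster of the table ended those of Fabp5 (0.0686), Pltp (0.0856), Lpl (0.127) and Cd36 (0.136). Of 14 cytokine, chemokine and acute phase genes, Saa1 (-0.88 ± 0.191, adjusted p = 0.0138) and Saa2 (-1.08 ± 0.161, 0.00106) were lower in hypothyroid liver (1.87% of all clusters). These are near-identical copies that probes may not tell apart. Group means of Saa1 ran from 2.89 to 3.89, below the array medians. Saa2 passed under all 20 alternatives, and Saa1 did not with the array SD as a covariate (adjusted p = 0.378) or over every cluster of the table (0.053). Il1b, a cytokine of activated macrophages, differed by 0.67 ± 0.246 for genotype (adjusted p = 0.194).

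**Figure D4:**
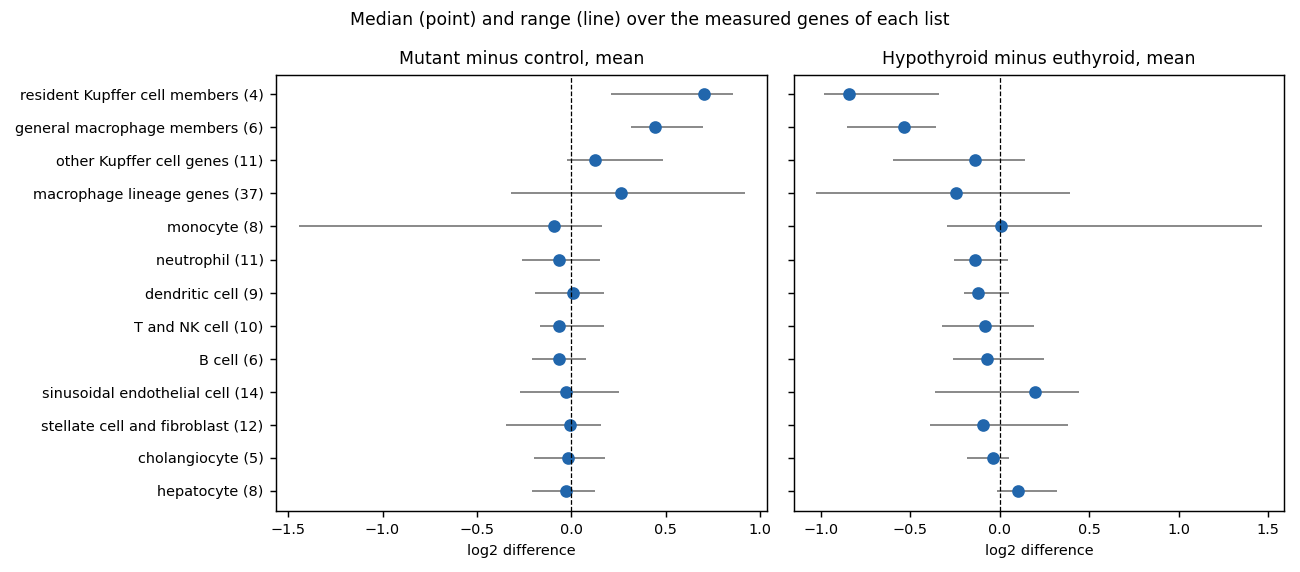
Median (point) and range (line) of the log2 difference over the measured genes of each list, with the number of genes in brackets, for mutant minus control averaged over thyroid states (left) and hypothyroid minus euthyroid averaged over genotypes (right). The resident and general markers have medians of 0.70 and 0.44 on the left and -0.84 and -0.54 on the right, while the neutrophil, T and NK cell and B cell lists have medians between -0.14 and -0.06. The mean signal of each of those other lists lay below the array medians, where a loss could hardly be seen.

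Markers of other cell types were set beside the members. For both averaged effects 0 genes were called among 11 neutrophil, 9 dendritic cell, 10 T and NK cell, 6 B cell, 14 sinusoidal endothelial, 12 stellate and fibroblast, 5 cholangiocyte and 3 erythroid genes. Over all clusters, 1.87% were called lower and 4.18% higher in hypothyroid liver, and 0.904% higher and 0.234% lower in mutants. Group means ran from 2.98 to 3.15 for the neutrophil and 3.63 to 3.76 for the dendritic cell list. They ran from 3.36 to 3.46 for T and NK and 3.30 to 3.47 for B cell genes. Array medians ran from 4.16 to 4.32, so a loss in these lists could hardly be seen. Thus they cannot show whether the members' differences are particular to macrophages. Of 8 monocyte genes, Nr4a1 alone was called. It averaged 4.17 ± 0.257 in hypothyroid mutants and 3.92 ± 0.168 in euthyroid mutants, against 6.83 ± 1.14 in hypothyroid controls and 4.15 ± 0.178 in euthyroid controls (SD, n = 3 each), so that hypothyroid controls stood apart from the other groups. The mutant difference was -2.66 ± 0.372 in hypothyroid mice (limma adjusted p = 0.00521) and -0.23 ± 0.372 in euthyroid mice (0.893), and the averaged calls for genotype and thyroid state both include that group. The interaction of -2.43 ± 0.526 was not called after adjustment over all clusters. Nr4a1 is also an early response gene of many cells. Both averaged calls held with any 1 array left out, and neither held with the array SD as a covariate (0.228 for genotype and 0.128 for thyroid state). Of 8 hepatocyte genes, Ttr was higher in hypothyroid liver (0.32 ± 0.0769, adjusted p = 0.0258), and the mean of that list spanned 12.29 to 12.36 in hypothyroid mutants, 12.13 to 12.24 in euthyroid mutants, 12.30 to 12.32 in hypothyroid controls and 12.20 to 12.27 in euthyroid controls. Ttr was kept only without control euthyroid mouse 13 or 14, mutant euthyroid mouse 2 or 3, or mutant hypothyroid mouse 5, and it missed the threshold with the array SD as a covariate (0.299). The endothelial list spanned 6.29 to 6.999 in hypothyroid mutants, wider than in any other group. In the other groups it lay between 6.40 and 6.70. Among hypothyroid mutants it was highest in mouse 6 and lowest in mouse 5, as the members' mean was. The stellate and cholangiocyte lists also had mouse 6 highest and mouse 5 lowest in that group. Mouse 3, the highest for the members, read 6.54 in the endothelial list. The endothelial mean was 6.65 in hypothyroid and 6.47 in euthyroid mutants, and 6.63 and 6.51 in controls, a direction opposite to that of the members. The part of endothelial or hepatocyte content in the members' differences was not tested.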

How the data were processed

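Liver RNA of 12 mice was measured on 12 arrays. The authors deposited 1 table of RMA values on the log2 scale, and the submitters' processing notes name the method without its version or options. Trizol extraction, an RNeasy clean-up and terminal labelling of cDNA from 200 ng came before hybridisation, per the labels. RMA draws arrays to a common distribution and combines probes, so small or saturated changes can be understated. No probe-level background measure was used, and array number limits the precision. No scan date was available to test as a batch.

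Gene symbols came from the platform annotation: 21789 of 35557 clusters carried 1 symbol, 1621 several and 12147 none. The 4 group means were estimated jointly over 12 arrays for all 21789 clusters in limma 3.58.1 (R 4.3.3; residual degrees of freedom 8, prior 6.83), without a filter on level, for 7 comparisons, with Benjamini-Hochberg adjustment over all clusters of a comparison. Adjusted p-values, standard errors (SE) and 95% intervals are from that fit, and 0.05 of adjusted p was the threshold for a call. The fit was tested on simulated data. The members, the 16 other lists and the rule for named genes were chosen with earlier results of these data known. The rule named every member, from each other list the 3 genes with the largest moderated t for the averaged genotype effect and any called gene, and the 10 genes most correlated with the members; those given no value in the text were not called. No arrays were identical (Pearson r from 0.950 to 0.987). Alternatives were other normalizations, filters, weights and samples. Promoters came from RefSeq (GRCm38.p6).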

Additional observations from a re-analysis of the deposited data

How the results depend on the processing

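No paired analysis was possible because no replicate number occurs in more than 1 group. Of 1870 values of single genes under an alternative, 1837 kept their direction. Some of these values could not change, so this count overstates how stable the directions were. Leaving out an array of a group outside a comparison, or fitting every cluster or the compared groups alone, gives the same difference. Clec4f in mutants was thus -1.06 without control hypothyroid mouse 17 and over every cluster. The members called for thyroid state averaged over genotypes, 3, numbered 6 after quantile normalization, 5 among clusters above the median level (which drops Marco), 8 with array weights, 1 over every cluster of the table, 1 without control euthyroid mouse 14 and mutant hypothyroid mouse 7 together, and 1 to 6 with 1 array left out. In mutants alone, 1 became 2 after quantile normalization and with array weights, 0 after median centring, over every cluster, without those 2 arrays and with the compared groups alone, and 0 to 2 with 1 array left out. In controls alone, 0 became 3 with array weights and 1 with the groups alone. For genotype averaged over thyroid states, 1 became 0 with array SD as a covariate, over every cluster and without the 2 arrays, 2 among clusters above the median level, 8 with array weights, and 0 to 2 with 1 array left out; in euthyroid mice 0 became 8 with array weights. The iteration that sets those weights stopped before it converged, and with them 5736 clusters were called for thyroid state (1317 in the analysis as reported; 181 to 5736 over the alternatives) and 3439 for genotype (248; 41 to 3439). Over the alternatives the clusters called numbered 36 to 827 for thyroid state in mutants (241), 134 to 5680 in controls (242), 6 to 2733 for genotype in euthyroid mice (28), 9 to 515 in hypothyroid mice (57) and 0 to 8 for the interaction (0). The cause of these changes was not tested.

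With array SD as a covariate the members' median was 0.08 for genotype in hypothyroid mice (0.44 as reported), 0.25 for genotype averaged (0.51), -0.83 for thyroid state in controls (-0.53) and -0.34 for the interaction (-0.21), which was -0.41 without the 2 arrays. The genotype difference in hypothyroid mice turned for Marco after quantile normalization (0.0524), median centring (0.0509), array SD (0.000372), array weights (0.0200) and without the 2 arrays (0.0276), and with array SD for Vsig4 (-0.36), C1qc (-0.0755) and Cd68 (-0.00827). The thyroid difference in controls turned for Cd68 with array weights (0.0429), and the interaction for Csf1r after median centring (0.00228) and Adgre1 with array weights (0.23). With 1 array left out the genotype difference in hypothyroid mice ran from -0.0940 to 0.43 for C1qc, -0.0554 to 0.37 for Cd68 and -0.0677 to 0.0467 for Marco, the thyroid difference in controls from -0.40 to 0.0232 for Cd68, and the interaction from -0.21 to 0.21 for Adgre1, -0.38 to 0.0586 for C1qa, -0.42 to 0.21 for C1qb, -0.56 to 0.0994 for C1qc, -0.43 to 0.0707 for Clec4f, -0.31 to 0.28 for Csf1r and -0.90 to 0.00259 for Vsig4.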
